A study of Poecilia mexicana x Poecilia latipinna and Poecilia formosa with 28 samples.

Results

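Brain and liver taken from the same female were compared in 20 of the 28 libraries of the series, from 10 fish that each gave both organs. Every fish with a brain and a liver library was used, and the 8 ovary libraries were not part of these comparisons. Of the 10 fish, 4 were Poecilia formosa (P.for), the Amazon molly, an all-female fish of hybrid origin that reproduces clonally. The other 6 were F1 hybrids (P.mex/lat), made in the aquarium by crossing a P. mexicana female with a P. latipinna male. All fish were untreated females of 3 months, and none carried a transgene or an engineered allele. The P.for fish were 1 clone kept in the aquarium for about 70 generations, and per the labels' protocols the fish of a genotype came from 1 mother and 1 brood. Siblings are the replicates here, so the p-values cover the spread among sisters and not among clones or crosses. Fish numbers that occur in both genotypes name different animals.

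The vertebrate brain is a mixture of neurons and glia, in which genes for synapses, ion channels, transmitter handling and myelin are used. The liver is made mostly of hepatocytes, which secrete plasma proteins, handle lipids and bile acids and detoxify, and which in female fish also produce the yolk precursor vitellogenin. A few of its messages, those of secreted proteins, are very abundant. Genes appear in the count table under numeric IDs alone, without symbols, so no function is given for any gene and the organ labels could not be checked against marker genes. In whole organs, fewer cells of a type and less RNA per cell cannot be told apart.

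Library totals ran from 32460110 to 37706902 counts in the 10 brains and from 40586409 to 46316691 in the 10 livers. The 10 most abundant genes made up 3.46% to 5.53% of the counts in brains and 25.6% to 41.4% in livers. Factors of the trimmed mean of M-values (TMM, a scaling that balances the bulk of genes) were 1.86 to 2.15 for brains and 0.424 to 0.634 for livers. At 1 CPM (the count relative to the library total) or more, brains had 18976 to 19996 genes and livers 12074 to 14639. The P.for livers had 13609 to 14639 such genes and the hybrid livers 12074 to 12946, without overlap. Brain libraries of P.for fish 4 and 11 stood apart from the other brains: 268 and 802 genes there were at 4 times the median of the other brains or more, against 6 to 92 genes in the remaining 8. Of the 802 genes in P.for brain 11, 483 were genes higher in liver over all fish and 65 were genes higher in brain, and together the 802 held 11.0% of that library. Of the 268 genes in P.for brain 4, 163 were higher in liver and 20 in brain. Over all genes tested 34.2% were higher in liver and 46% in brain, by a fit that includes these libraries. Interaction counts, calls in P.for and in both genotypes, and the size per fish are also given without P.for fish 4 and 11. Most other values are for all 10 fish.

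The first comparison asked which genes differ between brain and liver within a fish, over both genotypes. In edgeR's quasi-likelihood test with fish as block (Benjamini-Hochberg adjusted p under 0.05), 10722 of the 23316 genes tested were higher in brain, 46% of the genes, and 7966 were higher in liver, 34.2%. Organ differences were the rule: 80.2% of the genes were called one way or the other. The brain-higher genes differed more, with a median log2 fold change of 3.13 in size against 1.66 for the liver-higher genes. Of the brain-higher genes, 7017 differed over 4-fold and 2533 over 64-fold. The liver-higher genes counted 3230 over 4-fold and 618 over 64-fold. These folds are relative to the TMM scale, on which the median over all genes tested was a log2 brain minus liver of 0.34. DESeq2's size factors moved that median to 0.50, and library totals with no factor moved it to 2.21. With no factor 18300 genes were higher in brain and 2479 in liver, and 3268 genes were called the opposite way to the TMM fit. The direction of an organ difference smaller than such a shift therefore depends on the scaling. With no factor the shift was larger than the median size of the liver-higher genes, 1.66. The interaction between genotype and organ does not use the shared shift between the organs.

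The sign of the difference in single fish was counted next. It was the same in all 10 fish for 8654 of the brain-higher genes (80.7%) and for 5970 of the liver-higher genes (74.9%). For 7068 genes every brain library lay above every liver library, 30.3% of the genes tested, and for 4425 genes, 19%, every liver library lay above every brain library. Gene by gene, the spread of the brain minus liver difference among sisters was alike in the genotypes. Over 14902 genes at 5 CPM or more in an organ, the median SD was 0.42 on the log2 scale in P.for and 0.43 in the hybrids. With all fish, whole fish spread more in P.for: the SD among fish of the median over brain-higher genes was 0.36, against 0.11 in the hybrids. P.for fish 11 was the lowest, at 1.85. For the median absolute difference per fish, given below, the SD was 0.25 in P.for and 0.13 in the hybrids. Without P.for fish 11 the P.for value was 0.095, so the wider spread of that measure rests on 1 fish.

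The direction of the organ difference changed with how abundant a gene was. Abundance is taken as the mean TMM-scaled CPM in the higher organ and is not corrected for gene length. Against CPM of the library total, this scaling lowers brain levels and raises liver levels. The split was not repeated under another scaling. Among the 3758 genes tested that stayed under 1 CPM, 2023 were higher in brain and 448 in liver. Between 10 and 100 CPM the split was nearly even, with 4434 of 9924 genes higher in brain and 4086 in liver. Between 100 and 1000 CPM, 676 of 1994 genes were higher in brain and 1220 in liver. At 1000 CPM or more, 245 of 257 genes were higher in liver (95.3%) and 11 in brain, and the median log2 brain minus liver was −6.34. TMM-scaled library totals were larger in brains than in livers, so a gene at a low level passes the filter on counts more easily through brain, and the split under 1 CPM is a description of the genes that passed.

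A gene was counted as present in 1 organ when it reached 1 CPM of the library total in all 10 libraries of that organ and had at most 3 counts over the 10 libraries of the other. This held for 458 genes in brain and for 1 gene in liver. At exactly 0 counts in the other organ the numbers were 179 and 0. The rule is not equal for the organs. TMM-scaled library totals were larger in brains, so 3 counts over 10 brains mark a lower level than 3 counts over 10 livers. On that scale 1 CPM of the library total is also a higher limit in liver than in brain. The numbers of the organs therefore do not compare like with like. On the TMM scale, which lowers brain levels, the mean brain levels of the 458 genes had a median of 3.40 CPM, and the highest reached 136. Counted within a genotype, P.for had 763 brain-only and 9 liver-only genes, and the hybrids had 1178 and 16. The genotypes differ in the number of libraries over which the 3 counts are allowed, so these numbers are a description. Leaving out a fish raised the brain-only count to between 473 and 562, and the liver-only count ranged from 1 to 5, the 5 coming without P.for fish 4.

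The brain-higher genes with the largest fold among those called in each genotype and without overlap were 103141836 and 103142633. Gene 103141836 had TMM-scaled levels of 45.1, 41.8, 26.8 and 41.8 CPM in the brains of P.for fish 3, 4, 11 and 12. In hybrid brains it ran from 8.31 to 54.5 CPM with a median of 53.0. Hybrid fish 13 was the low one at 8.31, and the other 5 hybrid brains were at 52.8 CPM or more. No read was counted in any of the 10 livers against 29904 counts in the brains, which makes the gene at least 3246-fold higher in brain, taking 3 counts over the 10 livers as the floor. Gene 103142633 had 29.7, 16.8, 13.8 and 27.4 CPM in the P.for brains and 25.9 to 52.1 CPM, median 33.8, in the hybrid brains. It too had 0 counts in the livers, and with 20444 counts in the brains it was at least 2258-fold higher there. For both genes P.for brain 11 was the lowest of the P.for brains. Adjusted p was 3.3e-05 and 4e-05 in edgeR's quasi-likelihood test.

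The liver-higher genes chosen in the same way were 103134490 and 107836696. Gene 103134490 had 633, 609, 485 and 492 CPM in the P.for livers, and 567 to 1476 CPM with a median of 1119 in the hybrid livers. Its brain levels were 0.0569, 1.46, 0.114 and 0.404 CPM in P.for and 0.0299 to 0.255 CPM, median 0.129, in the hybrids. The organs stood far apart in every fish, and the log2 brain minus liver was −12.10 ± 0.73 (SE, n = 10 fish; adjusted p = 7.5e-09, edgeR). Gene 107836696 had 1477, 1400, 1304 and 1428 CPM in the P.for livers and 835 to 2057 CPM, median 1714, in the hybrid livers. In brains it had 0.142, 4.08, 0.506 and 0.502 CPM in P.for and 0.0427 to 0.621 CPM in the hybrids, and the log2 difference was −12.03 ± 0.79 (SE, n = 10 fish; adjusted p = 1.7e-08, edgeR). The highest brain value of either gene was that of P.for fish 4. Liver levels split the hybrids by library number: fish 4 and 10, whose libraries belong to the same number series as the P.for fish, had 598 and 567 CPM of 103134490, and the other 4 hybrids had 967 to 1476 CPM. Of 107836696, hybrid livers 4 and 10 had 835 and 851 CPM, below all P.for livers, and the other 4 had 1597 to 2057 CPM.

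**Figure D1:**
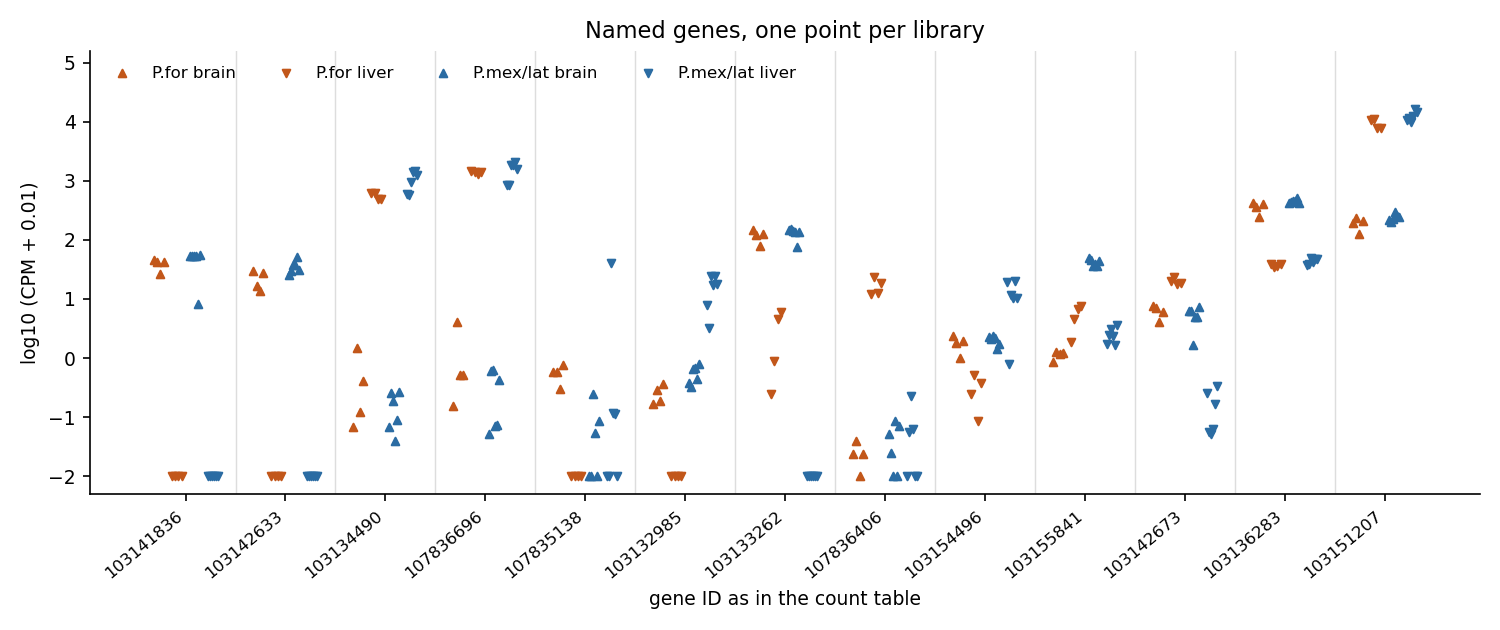
Levels of the 13 genes described by ID, as log10 of TMM-scaled CPM plus 0.01, with 1 point per library. Upward triangles are brains, downward triangles livers, orange P.for (4 fish) and blue P.mex/lat (6 fish), and points at the bottom edge are libraries with 0 counts. The first 2 genes have all 10 livers at 0, the next 2 have all livers at 485 CPM or more, the next 7 have a called interaction of genotype and organ, and the last 2 have an organ difference of like size in both genotypes.

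Each genotype was then tested apart on the same 23316 genes. Of the genes tested, 65.7% were called in P.for and 80.4% in the hybrids. In the 4 P.for fish 8773 genes were higher in brain, 37.6% of those tested, and 6541 were higher in liver, 28.1%. In the 6 hybrids 10913 genes were higher in brain, 46.8%, and 7833 in liver, 33.6%. The hybrids have 2 more fish, and the median standard error of the log2 fold change was 0.32 in P.for and 0.26 in the hybrids, so the counts do not compare like with like. The 4 hybrids of the second library series alone, filtered anew to 21650 genes, gave 10096 and 7441 calls. Over all genes tested, called or not, the median size of the log2 fold change was 1.45 in P.for and 1.89 in the hybrids.

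Most organ differences of the clone were also organ differences of the hybrid. Of the genes called, 8146 were higher in brain in both genotypes, which is 92.9% of the P.for list and 74.6% of the hybrid list. In liver, 5653 genes were called in both, 86.4% of the P.for list and 72.2% of the hybrid list. The log2 fold changes of the genotypes correlated over genes with Pearson's r of 0.93 and Spearman's rho of 0.91, as a description: genes are not independent, the organs' depths and composition are shared by all of them, and no p is given. The sign was the same in both genotypes for 20237 genes, 86.8%. For most genes called in 1 genotype alone, the test of a difference between the genotypes made no call. Of the 2656 genes called higher in brain in hybrids alone, 826 had a called interaction between genotype and organ, and 2041 had the same sign in P.for. Of the 531 called in P.for alone, the interaction was called for 207. The liver numbers were 895 of 2084 for hybrids alone and 290 of 777 for P.for alone. Over all genes tested the interaction was called for 24%, and the share in each of these lists was above that. The lists come from the same libraries as the interaction test.

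**Figure D2:**
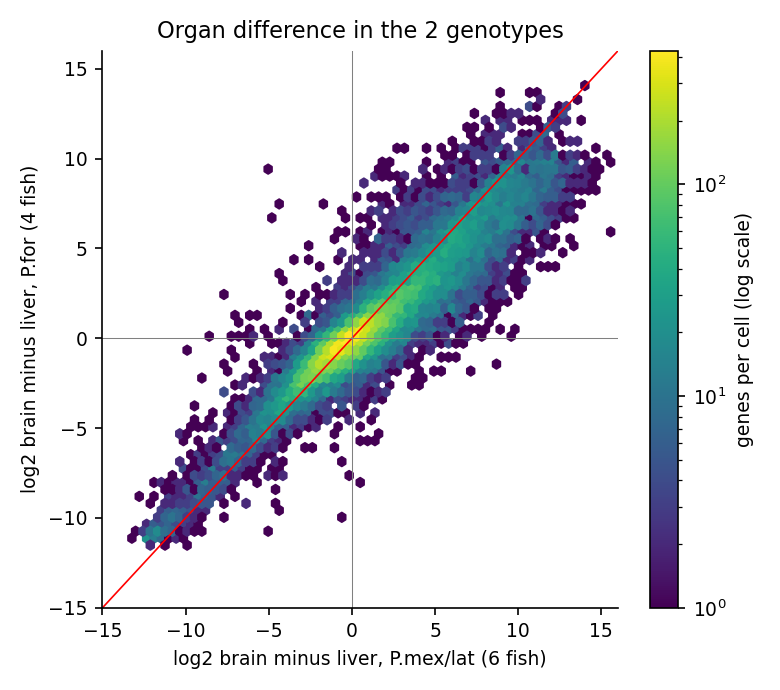
Log2 brain minus liver of the 23316 genes tested in P.mex/lat (x axis, 6 fish) and in P.for (y axis, 4 fish), with the colour giving the number of genes per cell on a log scale and the red line marking equal differences. The cloud follows the line (r of 0.93 over genes), and at large brain-higher values more of it lies below the line, where the P.for difference is the smaller one.

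A call in both genotypes does not show that the difference is equal, and a missed interaction does not either. Sameness was therefore read from the 95% interval of the genotype difference (limma voom): an organ difference counted as the same where that interval lay within 2-fold in either direction. Over all genes tested 4848, 20.8%, met this. Among the 8146 genes called higher in brain in both genotypes, 1201 had an interval within 2-fold (14.7%), 1879 had a called interaction, and 5079 had neither. Among the 5653 genes called higher in liver in both, 1735 had an interval within 2-fold (30.7%), 1255 had a called interaction, and 2710 had neither. For most shared organ differences the data thus give the direction but not whether the sizes lie within 2-fold of each other, and the median interval was 1.82 wide on the log2 scale. With a limit of 1.5-fold in place of 2-fold, 1003 of all genes met it.

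Gene 103136283, picked after its values were seen as the largest brain-higher difference among 88 genes whose interval lay within −0.5 to 0.5 on the log2 scale, shows an even organ difference. It had 426, 366, 242 and 404 CPM in the P.for brains against 39.1, 35.3, 35.9 and 39.6 CPM in the P.for livers. The hybrids had 415 to 502 CPM, median 446, in brain and 37.5 CPM or more, median 44.9, in liver. The log2 brain minus liver was 3.23 ± 0.21 in P.for (SE, n = 4 fish, edgeR) and 3.38 ± 0.13 in the hybrids (SE, n = 6 fish), and the interval of the genotype difference ran from −0.48 to 0.25 in limma. Gene 103151207, picked in the same way among 138 liver-higher genes, had 10493, 11098, 7793 and 7724 CPM in the P.for livers and 10016 to 16670 CPM, median 12031, in the hybrid livers. Its brain levels were 191, 232, 124 and 211 CPM in P.for and 203 to 293 CPM, median 235, in the hybrids. The log2 difference was −5.63 ± 0.33 in P.for and −5.68 ± 0.24 in the hybrids, with an interval from −0.31 to 0.47. The brain value of P.for fish 11 was the lowest of the 10 for both genes.

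The interaction of genotype and organ tested the difference itself. The difference is signed, so a liver-higher gene with a weaker liver excess in P.for counts as larger there. Brain minus liver was larger in P.for for 2536 genes, 10.9% of those tested, and larger in the hybrids for 3068 genes, 13.2%, so 24% of the genes were called (edgeR's quasi-likelihood test, Benjamini-Hochberg adjusted p under 0.05). Of the 5604 called interactions 4320 were over 2-fold, and over 4-fold were 1879. Most of the called genes, 3134, had an organ difference in the same direction in both genotypes and differed in its size. That share is not particular to them. Of all 23316 genes tested, 8146 were called higher in brain in both genotypes and 5653 higher in liver in both. A further 1721 were called between organs in hybrids alone, 497 in P.for alone, 45 in neither, and 207 in opposite directions.

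Where the size of the organ difference depended on genotype, it was mostly the smaller one in P.for, in both directions. Among the 10722 brain-higher genes, the difference was smaller in P.for for 2273 and larger for 250, and the median of P.for minus hybrid over all 10722 was −0.67 on the log2 scale. Among the 7966 liver-higher genes it was smaller in size in P.for for 1843 and larger for 213, with a median of 0.44. Of the genes with no organ call, 443 had a positive and 582 a negative interaction. The genes called in both genotypes leaned the same way. Of 1879 brain-higher genes with a called interaction 1702 had the larger difference in the hybrids, and of 1255 liver-higher genes 1134 did. These counts come from the same libraries and are not independent of those above. By the sign of the interaction the lean held under each scaling tried, for 84.1% to 93.9% of the called genes of either class. The classes were those of the TMM fit throughout. That fit covers all fish, of which more are hybrids than P.for. Whether it favours genes with the larger difference in the hybrids was not tested, and the lean was not recounted with genotypes weighted alike. With no factor 3268 genes were called the opposite way between organs, and for those the sign does not show which size was smaller.

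The genotype difference of the called genes was then compared between the organs. Of the 5604 called genes, 94.4% had a larger difference between the genotypes in liver than in brain. The same share over all 23316 genes tested was not computed, so it cannot be said whether this is particular to the called genes. Genes over 4-fold higher in brain had a median of 0.161, 0.229, 0.224 and 0.248 CPM in the livers of P.for fish 3, 4, 11 and 12 and of 0.0532 to 0.104 CPM in the hybrid livers. They took 0.649% to 1.13% of the counts of a P.for liver and 0.364% to 0.578% of a hybrid liver. Genes over 4-fold higher in liver had a median of 31.0 to 37.4 CPM in the P.for livers and 41.4 to 49.1 CPM in the hybrid livers. None of these ranges overlapped between the genotypes. A higher level in P.for livers was not particular to brain-higher genes. The median P.for minus hybrid log2 difference in liver was 0.38 over all brain-higher genes and 0.49 over those above 4-fold. It was 0.31 over genes with no organ call and −0.30 over all liver-higher genes. The CPM values are TMM-scaled, with liver factors of 0.507 to 0.634 in P.for and 0.424 to 0.576 in the hybrids. Whether the CPM ranges stay apart therefore depends on the scaling, and no other scaling was tried for them. The liver medians of the brain-higher genes also lie near the floor, at a few counts per library. In hybrid livers 12 and 13, the medians of 0.0532 and 0.104 CPM are 1 and 2 counts. In P.for liver 3, 6 counts are 0.241 CPM, above its median of 0.161 CPM. The share of liver counts held by the liver-higher genes did overlap, at 81.3% to 85.8% in P.for and 81.2% to 85.1% in the hybrids. These libraries also defined the classes, and the 4 second-series hybrids make up most of the hybrid group.

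In brain, P.for fish 4 and 11 lay farthest from the other fish. Genes over 4-fold higher in liver held 8.69% and 8.81% of the counts in the brains of P.for fish 3 and 12 and 7.97% to 8.78% in hybrid brains. They held 11.5% in the brain of P.for fish 4 and 17.1% in that of fish 11. The most abundant liver genes did not follow that order. For 97 of them, the median was 21.0 CPM (TMM-scaled) in brain 4 and 4.03 CPM in brain 11. It was 2.69 and 7.31 CPM in the brains of P.for fish 3 and 12 and 1.25 to 9.69 CPM in hybrid brains. Brain-higher genes over 4-fold held 46.5% and 46.3% in fish 3 and 12, 41.9% in fish 4 and 30.9% in fish 11, against 46.9% to 48.2% in the hybrids. Without fish 4 and 11 the number of called interactions was 2905 of the same genes. Of the brain-higher genes 1010 were then smaller and 140 larger in P.for, and of the liver-higher genes 775 were smaller and 255 larger. The median of P.for minus hybrid was then −0.42 over the brain-higher and 0.29 over the liver-higher genes, from −0.67 and 0.44 with all fish. The share of called genes with the larger genotype difference in liver was then 96.7%. Within the first library series, which holds all 4 P.for fish and hybrids 4 and 10, 990 interactions were called, with 274 smaller and 62 larger in P.for among brain-higher genes and 351 and 48 among liver-higher genes. The second series holds hybrids alone and gives no such value.

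**Figure D3:**
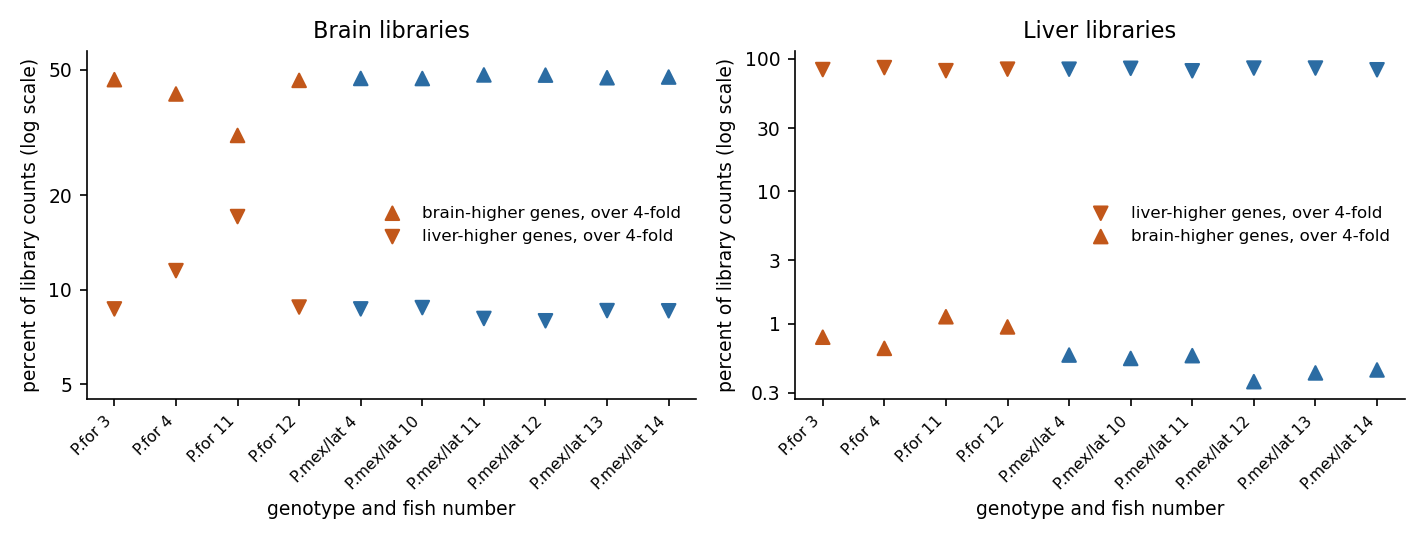
Percent of a library's counts (log scale) held by genes over 4-fold higher in brain (upward triangles) and over 4-fold higher in liver (downward triangles), for the 10 brain libraries (left) and the 10 liver libraries (right), orange P.for and blue P.mex/lat. In brains P.for 4 and 11 stand apart, with 11.5% and 17.1% in liver-higher genes, and in livers all 4 P.for fish lie above all 6 hybrids for brain-higher genes.

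**Figure D4:**
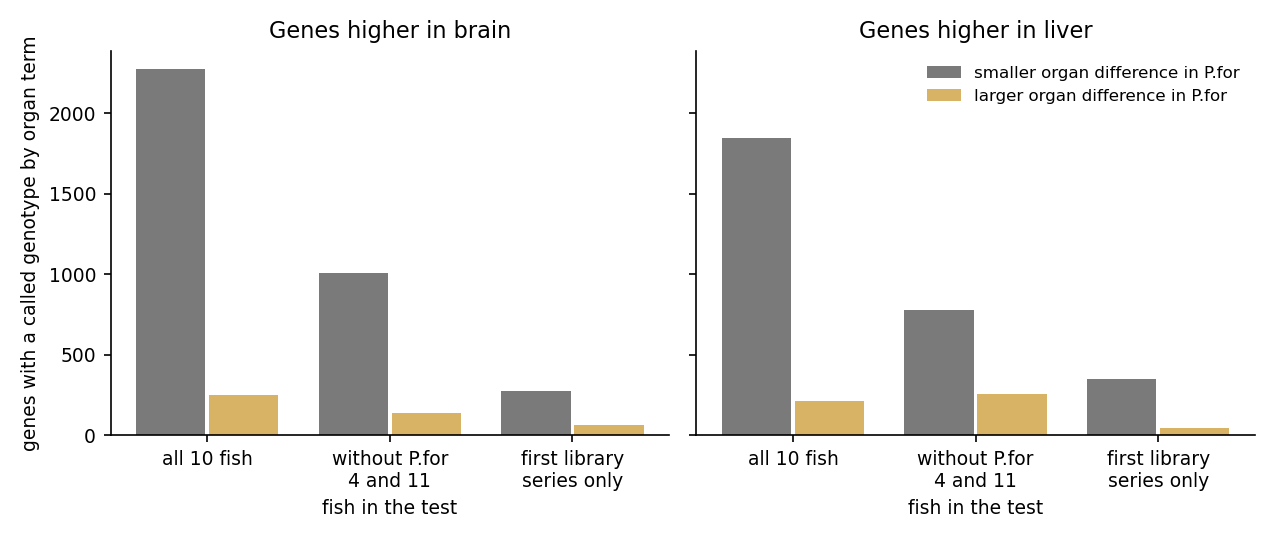
Number of genes with a called interaction of genotype and organ, split by whether the organ difference was smaller (grey) or larger (yellow) in P.for, for brain-higher genes (left) and liver-higher genes (right), over all 10 fish, without P.for 4 and 11, and within the first library series. The grey bar is the taller one in each of the 6 pairs, from 2273 against 250 to 274 against 62 for brain-higher genes.

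The genotypes were also compared with 1 value per fish. The size of the organ difference was taken as the median over 14924 genes of the absolute log2 brain minus liver. It was 1.66, 1.47, 1.08 and 1.56 in P.for fish 3, 4, 11 and 12. In hybrids 4, 10, 11, 12, 13 and 14 it was 1.81, 1.82, 1.85, 2.14, 1.85 and 2.00. All hybrids lay above all P.for fish, and P.for fish 11 was the lowest of the 10. The means were 1.44 ± 0.25 (SD, n = 4) and 1.91 ± 0.13 (SD, n = 6), a difference of −0.47 (exact two-sided permutation test over the fish, p = 0.00952, the smallest that the 210 splits allow). Without P.for fish 4 and 11 the difference was −0.30 and the groups still did not overlap, but 28 splits cannot go below p = 0.0714, the exact value found. Within the first series it was −0.37, with an exact p of 0.133, the smallest that 15 splits allow. With no scaling factor the groups overlapped, and the difference was −0.31 with an exact permutation p of 0.0286. The SD of the difference over genes, which a shift of a whole library does not change, was 3.56 in P.for and 4.14 in hybrids (exact p = 0.00952). By direction, the median log2 difference of brain-higher genes was 1.85 to 2.71 in P.for fish and 2.88 to 3.20 in hybrids, and that of liver-higher genes was −1.68 to −1.06 and −1.96 to −1.72.

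**Figure D5:**
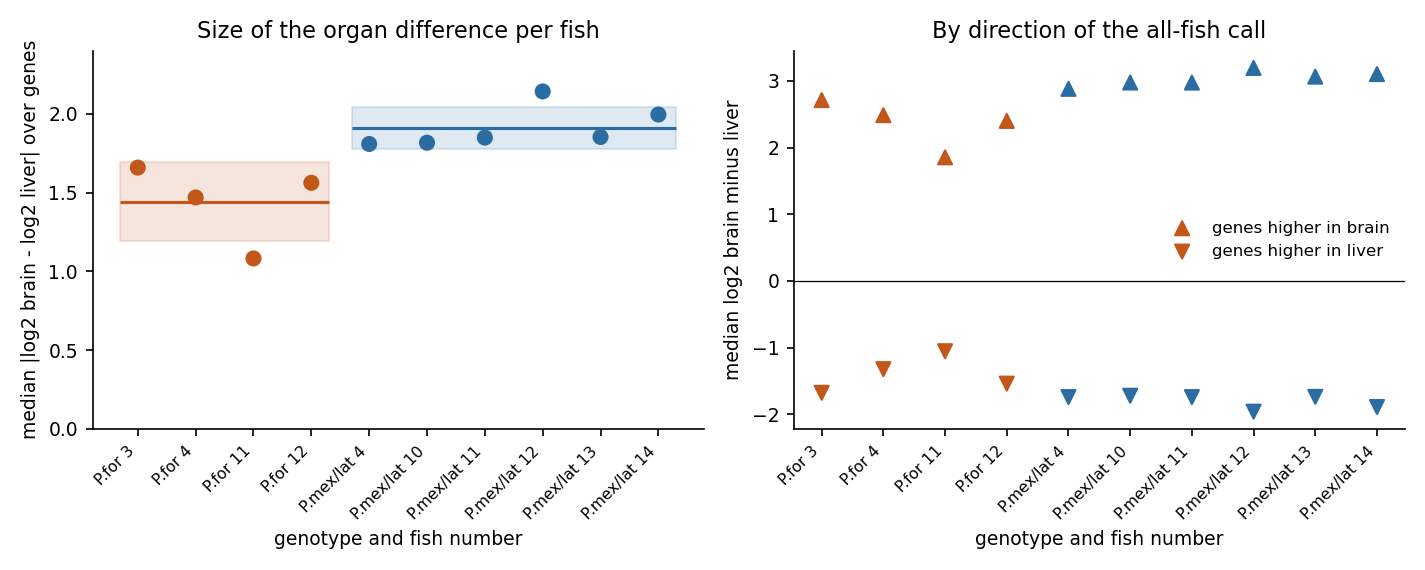
Size of the organ difference in each fish: the median over 14924 genes of the absolute log2 brain minus liver (left; line and band are the genotype's mean and SD), and the median log2 brain minus liver of the genes called higher in brain and in liver over all fish (right), orange P.for and blue P.mex/lat. The 4 P.for fish lie between 1.08 and 1.66, all below the 6 hybrids at 1.81 to 2.14.

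Toward P.for the interactions with the largest fitted size were those of 107835138 and 103132985. Gene 103132985 had 0 counts in all 4 P.for livers and 3.23 to 24.1 CPM, median 17.6, in the hybrid livers. The hybrid livers of the first library series, fish 4 and 10, were the lowest at 7.78 and 3.23 CPM. Its brain levels were 0.157, 0.277, 0.177 and 0.349 CPM in P.for and 0.315 to 0.781 CPM, median 0.534, in the hybrids. It was thus at least 7.82-fold higher in brain than in liver in P.for, against a floor of 3 counts over the 4 livers, and higher in liver in every hybrid, where the log2 brain minus liver was −4.67 ± 0.31 (SE, n = 6 fish, edgeR). The interaction had an adjusted p of 0.00024 (edgeR) and, over the alternatives, at most 0.041. Gene 107835138 had 0.569, 0.569, 0.291 and 0.753 CPM in the P.for brains and 0 to 0.237 CPM, median 0.0224, in the hybrid brains, without overlap. Its livers had 0 counts in P.for. Hybrid liver 11 had 41.3 CPM, and the other 5 hybrid livers had 0 to 0.106 CPM. The gene met the rule of at least 5 CPM in the highest group, with a hybrid liver mean of 6.92 CPM, only through that 1 library. The fitted interaction of 11.57 on the log2 scale had an adjusted p of 0.042 in edgeR. Without hybrid 11 it was 8.43 and no longer called. The call was also lost within the first library series, without P.for 4 and 11 together, and without any 1 of P.for 4, 11 and 12 and hybrids 12 and 13, at fitted values of 7.69 to 12.74. These values depend on the prior count of the fit, since the P.for livers are at 0, and over all its alternatives the adjusted p ran from 0.0031 to 1.

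Toward the hybrids the largest interactions were those of 103133262 and 107836406. Gene 103133262 was a brain gene in all fish, with 148, 122, 79.6 and 125 CPM in the P.for brains and 75.0 to 153 CPM, median 139, in the hybrid brains. All 6 hybrid livers had 0 counts, a brain level at least 5626-fold higher, and the P.for livers had 0.241, 0.868, 4.58 and 6.11 CPM. The adjusted p of the interaction was 0.022 in edgeR. The fitted interaction of −9.78 on the log2 scale was −9.98 within the first library series, with an adjusted p of 0.14, the highest of its alternatives. It was −9.41 and also not called without P.for fish 4 and 11. Gene 107836406 had 12.2, 23.6, 12.6 and 18.3 CPM in the P.for livers, 0 to 0.214 CPM in the hybrid livers and at most 0.0747 CPM in any brain. It was a liver gene in P.for, with a log2 brain minus liver of −9.99 ± 0.41 (SE, n = 4 fish; adjusted p = 2.8e-05, edgeR), and had no called organ difference in the hybrids (adjusted p = 0.69). The adjusted p of its interaction was 0.001 (edgeR) and reached 0.028 at most.

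Opposite organ differences were rare. In 207 of the 23316 genes tested the genotypes were called in opposite directions. Of these, 96 were higher in brain in P.for and in liver in the hybrids, and 111 the reverse. The interaction was called for all 207, which opposite calls in the same libraries all but fix in advance. The genes named here were picked after their values were seen, among the 165 of these with at least 5 CPM. They are the largest there by the smaller of the genotypes' fold changes. Gene 103132985, described above, was one of them. Gene 103154496 had 2.35, 1.81, 0.999 and 1.92 CPM in the P.for brains against 0.241, 0.503, 0.0745 and 0.372 CPM in the P.for livers. Hybrid brains had 1.43 to 2.32 CPM and hybrid livers 19.5, 0.795, 11.5, 10.3, 20.3 and 10.5 CPM in fish 4, 10, 11, 12, 13 and 14. Brain levels of this gene overlapped, while the livers did not, and hybrid liver 10 lay below its own brain. The log2 brain minus liver was 2.69 ± 0.44 in P.for (SE, n = 4 fish, edgeR) and −2.28 ± 0.57 in the hybrids (SE, n = 6 fish), and the interaction's adjusted p was 0.0028, or 0.17 within the first library series, the highest of its alternatives.

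In the reverse direction gene 103155841 differed in brain. It had 0.854, 1.25, 1.16 and 1.19 CPM in the P.for brains and 35.7 to 49.3 CPM, median 41.9, in the hybrid brains. The livers had 1.85, 4.52, 6.67 and 7.52 CPM in P.for and 1.66 to 3.61 CPM in the hybrids, so that liver was the higher organ in each P.for fish and brain in each hybrid. The log2 brain minus liver was −2.05 ± 0.34 in P.for (SE, n = 4 fish, edgeR) and 4.13 ± 0.20 in the hybrids (SE, n = 6 fish), with an adjusted p of 7.4e-06 for the interaction. Gene 103142673 differed in liver, with 20.3, 23.9, 17.9 and 18.3 CPM in P.for and 0.0428 to 0.332 CPM in the hybrids. Its brain levels overlapped, at 7.46, 7.05, 4.07 and 6.08 CPM in P.for and 1.66 to 7.17 CPM in the hybrids. Its log2 brain minus liver was −1.73 ± 0.18 in P.for (SE, n = 4 fish, edgeR) and 5.22 ± 0.36 in the hybrids (SE, n = 6 fish), and the interaction's adjusted p was 6.1e-06. Both kept their interaction calls within the first library series, at adjusted p of 0.0084 and 0.0082 in edgeR, the highest over their alternatives. Reads of the hybrids carry alleles of 2 species, and how reads of each allele or of near-identical gene copies were counted was not tested.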

How the data were processed

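The authors deposited raw read counts per gene for 28 libraries, 31997 genes without normalization. Per the submitters' processing notes, TopHat2 and featureCounts were used. Settings, genome build, annotation and strand handling are not given in the sources used here, and genes that overlap on opposite strands may share reads. Per the labels' protocols, RNA with an integrity number above the submitters' limit went into TruSeq mRNA libraries. Columns were matched to samples by name, with 0 left unused, and groups were taken from the labels.

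Members and lists were chosen with earlier results of these data known. The 38 lists of pathways and cell types and the rule naming genes by symbol could not be run without names. In their place 2 IDs per direction are given for the organ difference (called in each genotype, no overlap, at least 20 CPM) and for the interaction (at least 5 CPM in the highest group).

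The 20 brain and liver libraries were tested with edgeR 4.0.16 in R 4.3.3: filterByExpr on organ by genotype, TMM, robust quasi-likelihood test, Benjamini-Hochberg adjustment at 0.05. Organ and genotype by organ were terms beside fish, which pairs organs of 1 animal. Standard errors given with edgeR are the absolute log2 fold change divided by the square root of the test's F statistic. Over genes, the deviations of a fish's brain correlated with those of its liver at a median of 0.117 (−0.121 to 0.246). Intervals came from limma 3.58.1. CPM of single genes used TMM-scaled totals. The size per fish used log2 CPM with a prior count of 2 over genes at 5 CPM or more in an organ, with SciPy 1.17.1 for the exact permutation test. A fold against a group at 0 is a bound against 3 counts over that group and covers counting error only. The number series of the libraries (first: P.for, hybrids 4 and 10) is not called a batch by the labels. Replicate libraries all differed beyond sampling noise, with a chi-square of at least 17.31 per degree of freedom between any pair of a group. The fits were tested on simulated counts. Alternatives included DESeq2 1.42.0, other scalings, no filter, no replicate block and leaving out each fish.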

Additional observations from a re-analysis of the deposited data

Results flagged for a closer look

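Of 81 groups of library or gene values tested for a sample far from the others, 8 stood out, and chance flags about 1 in 20. The gap to the nearest library, as a share of the group's range, was 0.963 for gene 103141836 in hybrid brain 13 (8.31 CPM) and 0.79 for gene 103133262 in the same library (75.0 CPM). It was 0.908 for gene 107836696 in P.for brain 4 (4.08 CPM). Hybrid fish 11 stood out for gene 107835138 in liver (41.3 CPM, 0.997) and in brain (0.237 CPM, 0.682), and for gene 107836406 in liver (0.214 CPM, 0.752). In hybrid liver 12 the 10 most abundant genes held 41.4% of the counts (0.67) and the most abundant gene 19.8% (0.721). The causes were not tested.

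Organ differences that differed between the genotypes by the interaction test numbered 2536 with the larger brain minus liver in P.for and 3068 with the larger one in the hybrids. The size of the organ difference per fish differed by −0.468. Among single genes, the fitted P.for minus hybrid difference of the log2 brain minus liver was 11.57 for 107835138, 11.14 for 103132985, −9.78 for 103133262, −9.33 for 107836406, 4.96 for 103154496, −6.17 for 103155841 and −6.90 for 103142673. The fitted values of the first 3 involve a group with 0 counts and depend on the prior count of the fit.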

How the results depend on the processing

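Of 267 alternative values for the counts and the size per fish, 242 kept the call or stayed within 1.5 times. Of 260 for the 13 named genes, 249 kept direction and call, 11 lost the call and 0 reversed. Without scaling factors, genes higher in brain and liver numbered 18300 and 2479 over all fish, 17306 and 1960 in P.for, 17942 and 2774 in the hybrids, and 16242 and 1755 in both. Interactions toward P.for and the hybrids fell to 523 and 468 within the first library series, and to 1135 and 1774 without P.for fish 4 and 11, an alternative chosen after seeing the data. The size per fish was then −0.37 and −0.30. Those settings have fewer fish. Without P.for fish 4 and 11, filtered anew to 23704 genes, P.for had 7613 genes higher in brain and 5918 in liver. Called in both genotypes were then 7251 and 5066 genes. Opposite calls then numbered 189, and 3792 genes had an interval within 2-fold. Opposite calls numbered 320 with the DESeq2 test and 103 to 205 with a fish left out, lowest without P.for fish 12. Leaving out a fish gave 1711 to 2535 and 2160 to 3021 interactions, and 1 to 5 genes counted in liver only. With a limit of 1.5-fold 1003 genes were even, and at 0 counts 179 and 0 genes were counted in 1 organ only. The other causes were not tested. Fish is the pairing of the main design. With no replicate block, 10818 and 8304 genes were called over all fish, and interactions numbered 3272 and 3895. Tests other than edgeR give no size per fish.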
